A study of Homo sapiens with 29 samples.

Results

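Interferon-stimulated genes are genes whose transcription rises when a cell senses interferon. Here they were a list of 49 genes, all found among the 35579 genes of the deposited table. The cells were PC9, a human lung adenocarcinoma line with an activating EGFR mutation, in 10 versions whose RNA was sequenced. These lines were the parental cells (PAR), AXL knockout cells made from them with a guide against the kinase domain (KO), and KO cells transduced by lentivirus with AXL that was wild-type (WT), kinase-dead (KD) or changed from tyrosine to phenylalanine at 1 position (Y634F, Y643F, Y698F, Y726F, Y750F or Y821F). All 9 derived lines therefore carry the cut AXL gene and passed through sorting, and the transduced lines are populations in which part of the cells still lack AXL. Cells were left untreated, given 1 μM of the EGFR inhibitor erlotinib (E), or given erlotinib with AF154, an AXL-activating antibody, at 300 ng/mL (EA), and were lysed after 24 h. There were 10 untreated libraries, 10 with E and 9 with EA, 1 for each line and treatment. KO with EA was not analysed here.

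Type I and type III interferons signal through receptors that activate the kinases JAK1 and TYK2. STAT2 and IRF9 then act in a complex that binds a DNA element called ISRE, while another element, GAS, serves the response to type II interferon. The products of the target genes sense viral RNA, cut or block it, alter membranes, tag proteins with ubiquitin or ISG15, or act as transcription factors that widen the response. Many of these genes also have a level in cells that have met no interferon.

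Values are TPM, a length-corrected share of all transcripts in a library, summed over the transcripts of a gene. The unit gives every library the same total and keeps no read number, and the depth is therefore unknown. Tests of treatment used limma on log2(TPM + 1) with the cell line as a block and the Benjamini-Hochberg adjustment over all genes tested, and a gene was called at an adjusted p under 0.05. This scale understates the changes of low genes. Because each line and treatment gave 1 library, the lines were the replicates, and nothing in the labels shows that their dishes were separate experiments. A total of 9085 genes averaged 10 TPM or more across libraries and entered the main fit, 24 of the 49 members among them. Another 21 members had a mean between 1 and 10 TPM and were tested in a fit of 14111 genes. The 4 members with a mean under 1 TPM were IFIT1, BST2, RSAD2 and CMPK2.

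The libraries carried epithelial markers, with KRT7 at 3164 TPM or more and EPCAM at 286 TPM or more, and the 6 leukocyte markers summed to at most 5.28 TPM. The 3 endothelial markers summed to at most 10.2 TPM, and PECAM1 among them had a mean of 6.49 TPM untreated and 2.20 TPM with E. Of the fibroblast markers, COL1A1 lay between 15.3 and 70.9 TPM and its sum with the other 3 was higher in every E library, at 37.2 TPM or more, than in every untreated library, at 36.2 TPM or less. COL3A1 was at most 0.062 TPM, and the part of such cells in the results was not tested. KO held the least AXL RNA (92.4 TPM without treatment, 79.3 TPM under E), against 217 TPM or more in every other library. The knockout acts on the DNA, so this level does not measure AXL protein.

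With erlotinib, the transcription factors STAT2, IRF9 and IRF1 rose the most of the factors, to 2.41, 2.67 and 2.10 times their mean untreated TPM, and most measured members rose with them. Of the 24 members in the main fit, 16 were higher with E, 4 were lower and 4 were not called. Among all 9085 genes, 36.4% were higher and 42.6% were lower, so a call in one direction or the other was common. The median change of the 24 members was 0.35 on the log2 scale, beside -0.04 for all genes. In the fit with the lower limit of 1 TPM, 30 of 45 members were higher and 5 were lower, beside 35.5% and 36.3% of all genes. Of the 24 members, 13 were higher with E in 10 of 10 lines and 3 were lower in 10 of 10 lines, and 25.1% and 32.5% of all genes were. For 11 members the lowest E library stood above the highest untreated library, and for 2 members the highest E library stood below the lowest untreated one, beside 14.9% and 21.6% of all genes.

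STAT2 (ENSG00000170581, chromosome 12 from 56341597 to 56360155 in GENCODE release 29 on GRCh38, minus strand) is a transactivating subunit of the complex that binds ISRE elements. It lay between 12.3 and 20.4 TPM untreated (median 16.6), between 32.9 and 44.7 TPM with E (median 39.2), and between 29.3 and 43.5 TPM with EA (median 39.7). The untreated and treated libraries did not overlap, and WT and PAR were the lowest of the E libraries. The change with E was 1.22 ± 0.07 on the log2 scale (SE, n = 10 lines, limma adjusted p = 7.08e-10). Its main protein-coding transcript, STAT2-201, went from a mean of 9.14 TPM untreated to 21.2 TPM with E.

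IRF9 (ENSG00000213928, chromosome 14 from 24161053 to 24166565, plus strand) is the DNA-binding subunit of the same complex. Its libraries ranged from 3.23 to 7.63 TPM untreated (median 6.24), from 13.6 to 21.0 TPM with E (median 16.2) and from 11.1 to 21.0 TPM with EA (median 14.99). WT was the lowest line in all 3 treatments, and again the untreated and E libraries did not overlap. The log2 change with E was 1.30 ± 0.09 (SE, n = 10, limma adjusted p = 6.65e-09). Protein-coding transcripts held 34.8% of the gene's TPM in untreated libraries and 48.97% with E, and much of the rest was assigned to transcripts that retain an intron. The coding transcript IRF9-202 had a mean of 1.44 ± 0.34 TPM untreated and 5.24 ± 0.31 TPM with E (SD, n = 10 each).

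IRF1 (ENSG00000125347, chromosome 5 from 132481609 to 132490798, minus strand), a factor that binds ISRE-like elements and is itself a GAS target, followed the same course. It lay between 11.9 and 25.7 TPM untreated (median 22.2), between 37.5 and 50.1 TPM with E (median 43.4), and between 36.4 and 49.3 TPM with EA (median 42.5). PAR was the lowest line in every treatment, and its untreated library stood apart from the other 9, which began at 18.9 TPM. The log2 change with E was 1.05 ± 0.07 (SE, n = 10, limma adjusted p = 1.86e-09). IRF7, the factor that amplifies interferon production in immune cells, lay between 0.078 and 1.96 TPM over all 29 libraries. Its mean was 0.85 TPM untreated and 1.20 TPM with E, and its change of 0.27 ± 0.17 was not called (limma adjusted p = 0.16 in the lower-limit fit).

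**Figure D1:**
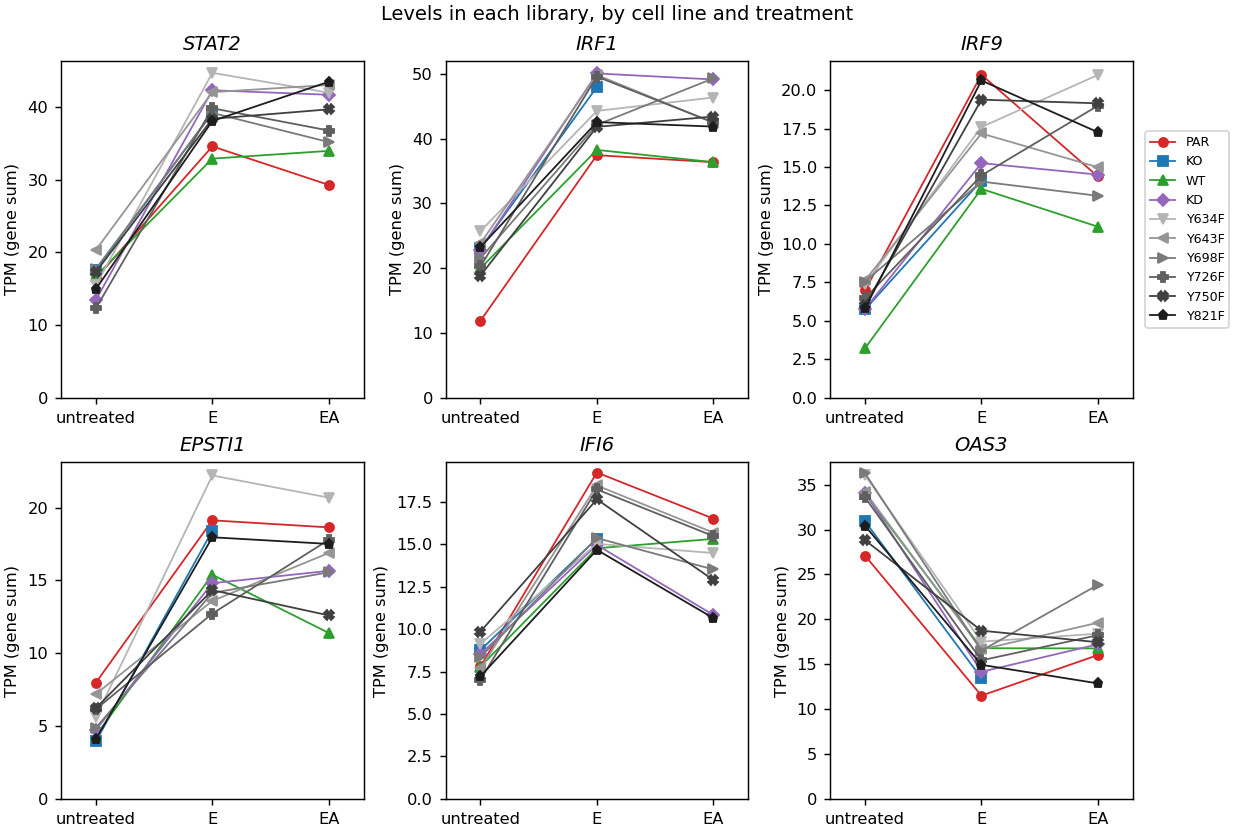
Gene-level TPM (y axis, linear, from 0) of 6 members in each of the 29 libraries, by treatment (x axis), with a line joining the libraries of a cell line. STAT2, IRF1, IRF9, EPSTI1 and IFI6 were higher in every E library than in every untreated library, and OAS3 was lower in every E library, at 18.7 TPM or less, than in every untreated library, at 27.1 TPM or more.

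The largest change among the 24 members was that of EPSTI1 (ENSG00000133106, chromosome 13 from 42886388 to 42992271, minus strand), named for its induction in epithelial cells by stroma. It lay between 3.96 and 7.99 TPM untreated (median 5.27), between 12.7 and 22.2 TPM with E (median 15.1), and between 11.4 and 20.7 TPM with EA (median 16.9). The groups did not overlap and the log2 change with E was 1.41 ± 0.12 (SE, n = 10, limma adjusted p = 3.04e-08), from 0.83 in Y643F to 1.97 in KO. IFI6 (ENSG00000126709, chromosome 1 from 27666061 to 27672218, minus strand), a small membrane protein that restrains apoptosis, lay between 7.03 and 9.85 TPM untreated (median 8.08) and between 14.7 and 19.2 TPM with E (median 15.3). Its change was 0.91 ± 0.07 (SE, n = 10, limma adjusted p = 2.29e-08). XAF1 (ENSG00000132530, chromosome 17), a pro-apoptotic partner of XIAP, was less uniform. It ranged from 13.7 to 22.0 TPM untreated (median 16.9) and from 16.4 to 43.6 TPM with E (median 29.6), with a change of 0.68 ± 0.11 (SE, n = 10, limma adjusted p = 6.12e-05). In PAR it was 15.9 TPM untreated and 16.4 TPM with E, and in WT it was 18.8 and 17.3 TPM, while the other 8 lines had 28.7 TPM or more with E.

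The members that fell with E were antiviral effectors too. OAS3 (ENSG00000111331, chromosome 12 from 112938352 to 112973249, plus strand) makes the 2′-5′ oligoadenylates that activate RNase L on sensing double-stranded RNA. It lay between 27.1 and 36.3 TPM untreated (median 33.8), between 11.5 and 18.7 TPM with E (median 15.98), and between 12.9 and 23.8 TPM with EA (median 17.5). Its change of -1.02 ± 0.06 (SE, n = 10, limma adjusted p = 3.80e-10) was a fall in 10 of 10 lines, and the transcript OAS3-201 had a mean of 23.2 TPM untreated and 10.6 TPM with E.

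EIF2AK2 (ENSG00000055332, chromosome 2, minus strand), which encodes PKR, the kinase that halts translation on double-stranded RNA, lay between 53.4 and 65.8 TPM untreated (median 61.5) and between 32.8 and 42.5 TPM with E (median 34.3). The change was -0.75 ± 0.05 (SE, n = 10, limma adjusted p = 2.46e-09). TRIM25, a ubiquitin ligase that assists RIG-I, fell from a median of 70.3 to 57.1 TPM (log2 change -0.37 ± 0.06, SE, n = 10, limma adjusted p = 3.83e-05). The fourth, the membrane protein PLSCR1, changed by -0.09 ± 0.04 (SE, n = 10, limma adjusted p = 0.043), a call that was lost when library medians were centred (adjusted p = 0.23) and in 6 of the 10 fits that left out 1 line.

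The OAS family did not move together. OAS1 was called higher by 0.21 ± 0.06 (SE, n = 10, limma adjusted p = 0.0071), from a median of 18.7 to 22.9 TPM with overlapping libraries. OAS2, at a median of 2.83 TPM untreated and 4.86 TPM with E, was higher by 0.61 ± 0.11 in the lower-limit fit (SE, n = 10, limma adjusted p = 0.000324), although in PAR it was 1.74 TPM untreated and 1.24 TPM with E. OASL, which lacks the synthetase activity, was not called (log2 change -0.23 ± 0.11, limma adjusted p = 0.082). ISG20, an exonuclease on RNA, was higher by 0.57 ± 0.11 (SE, n = 10, limma adjusted p = 0.000332).

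The promoters of 40 of the 49 members were matched in a RefSeq table of windows from 250 bases before to 50 bases after the transcription start (GRCh38.p14). They were searched on both strands for 1 simplified ISRE pattern, GAAANNGAAA, and 1 simplified GAS pattern, TTCNNNGAA. The ISRE pattern was in 27 of the 40 members (67.5%) and in 4.38% of the 27305 genes of the table, and the GAS pattern was in 12 (30.0%) and in 9.38%. Members of this list are known targets, so this share describes the list. With E, the ISRE pattern was present in 8 of the 14 higher members with a window, in 3 of the 4 lower members and in 2 of the 4 that were not called, so it did not separate the members by direction. STAT2, IRF1, IRF9, OAS1, XAF1 and UBE2L6 rose with no match to the ISRE pattern in the window. The 200 bases before the start are shown for 4 genes with the ISRE pattern, of which ISG15, IFI6 and EPSTI1 rose and OAS3 fell, and for IRF1 and IRF9, which had only the GAS pattern. Capitals mark the ISRE matches, and in IRF1 and IRF9 the GAS matches. EPSTI1 also had 1 GAS match, which overlaps its ISRE match and is not marked.
ISG15 (chr1:1013297-1013496, plus strand): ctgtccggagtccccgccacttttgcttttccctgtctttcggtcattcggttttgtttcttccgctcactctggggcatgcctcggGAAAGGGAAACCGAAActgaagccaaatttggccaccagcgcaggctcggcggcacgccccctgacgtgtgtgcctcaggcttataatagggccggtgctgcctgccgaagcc
IFI6 (chr1:27672193-27672392, minus strand): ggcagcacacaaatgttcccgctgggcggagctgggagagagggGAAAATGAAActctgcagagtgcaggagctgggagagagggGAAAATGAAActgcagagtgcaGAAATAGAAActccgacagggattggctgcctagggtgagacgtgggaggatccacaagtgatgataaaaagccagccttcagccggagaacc
EPSTI1 (chr13:42992242-42992441, minus strand): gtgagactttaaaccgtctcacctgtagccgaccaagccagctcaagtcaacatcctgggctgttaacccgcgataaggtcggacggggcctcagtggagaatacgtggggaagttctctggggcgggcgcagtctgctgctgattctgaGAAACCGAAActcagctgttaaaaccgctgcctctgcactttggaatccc
OAS3 (chr12:112938274-112938473, plus strand): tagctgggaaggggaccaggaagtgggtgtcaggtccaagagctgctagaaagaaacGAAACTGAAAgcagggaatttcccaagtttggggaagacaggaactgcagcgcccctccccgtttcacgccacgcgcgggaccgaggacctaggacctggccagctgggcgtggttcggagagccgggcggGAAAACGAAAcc
IRF1 (chr5:132490774-132490973, minus strand): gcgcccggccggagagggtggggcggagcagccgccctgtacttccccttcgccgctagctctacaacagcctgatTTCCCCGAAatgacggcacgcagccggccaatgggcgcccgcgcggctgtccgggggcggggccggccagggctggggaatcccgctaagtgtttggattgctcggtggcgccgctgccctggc
IRF9 (chr14:24161065-24161264, plus strand): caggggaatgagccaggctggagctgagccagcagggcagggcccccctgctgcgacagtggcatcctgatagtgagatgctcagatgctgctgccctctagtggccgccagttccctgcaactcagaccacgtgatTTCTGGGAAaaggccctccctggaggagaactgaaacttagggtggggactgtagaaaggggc

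In ISG15 the 2 ISRE matches overlapped, in IFI6 there were 3 and in EPSTI1 there was 1. OAS3 had 2, the nearer of them 12 bases before the start. A match describes letters in the window and is no evidence that a factor binds there in these cells.

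Among the RNA sensors, all 4 measured members were higher with E in the lower-limit fit, beside 35.5% of all genes. DHX58, which encodes LGP2, a regulator of the other sensors, lay between 5.10 and 9.33 TPM untreated (median 7.49), between 10.7 and 16.1 TPM with E (median 14.3), and changed by 0.85 ± 0.09 (SE, n = 10, limma adjusted p = 3.55e-07). It was the only sensor above 10 TPM on average, and in PAR its change was 0.18. DDX58, which encodes RIG-I, had medians of 4.75 TPM untreated and 8.68 TPM with E (log2 change 0.70 ± 0.07, limma adjusted p = 6.62e-07). IFIH1, which encodes MDA5, changed by 0.34 ± 0.07 and DDX60 by 0.38 ± 0.14 (SE, n = 10, limma adjusted p = 0.000866 and 0.0245). DDX60 was lower with E in KO and WT.

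In the ISG15 and ubiquitin group, ISG15 (ENSG00000187608, chromosome 1 from 1001138 to 1014540, plus strand), the ubiquitin-like protein, lay between 43.0 and 58.7 TPM untreated (median 46.1), between 57.3 and 72.9 TPM with E (median 66.6), and between 40.8 and 77.9 TPM with EA (median 64.2). It rose in 10 of 10 lines by 0.41 ± 0.06 (SE, n = 10, limma adjusted p = 1.11e-05), though the untreated and E groups overlapped. UBE2L6, the enzyme that carries ISG15 to its targets, rose from a median of 118.7 to 153.8 TPM (0.46 ± 0.06, limma adjusted p = 3.19e-06). DTX3L, the ligase that pairs with PARP9, was the steadiest, with changes between 0.16 in WT and 0.35 in Y750F. The protease USP18, which removes ISG15 and dampens the receptor, went the other way: its median was 3.79 TPM untreated and 2.32 TPM with E, a change of -0.52 ± 0.10 (SE, n = 10, limma adjusted p = 0.000286). HERC6 was higher by 0.50 ± 0.09, while HERC5, the main human ISG15 ligase, was not called (-0.08 ± 0.07, limma adjusted p = 0.30).

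The ADP-ribosyltransferases of the PARP family were all 3 higher with E, beside 36.4% of all genes. PARP9 lay between 8.52 and 11.9 TPM untreated (median 9.26) and between 13.0 and 18.8 TPM with E (median 14.5), with no overlap and a change of 0.54 ± 0.07 (SE, n = 10, limma adjusted p = 3.07e-06). PARP14 lay between 10.8 and 15.4 TPM untreated (median 12.9) and between 16.05 and 25.8 TPM with E (median 18.4), a change of 0.48 ± 0.06 (SE, n = 10, limma adjusted p = 7.23e-06). In both, Y643F was the highest E library. PARP12 was higher by 0.21 ± 0.07 (SE, n = 10, limma adjusted p = 0.0091), a call that was lost without the block. In PAR it fell from 76.3 TPM untreated to 58.5 TPM with E. PML, the organiser of nuclear bodies, lay between 44.3 and 56.3 TPM untreated (median 52.3) and between 69.2 and 92.0 TPM with E (median 84.7), and rose by 0.71 ± 0.04 (SE, n = 10, limma adjusted p = 7.33e-10). SP100, another component of these bodies, had medians of 65.6 and 65.5 TPM and was not called (0.01 ± 0.05, limma adjusted p = 0.89).

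Several of the classical markers of an interferon response were low or were not called. MX1, a GTPase against influenza virus, had medians of 11.98 TPM untreated and 14.99 TPM with E, and its change of 0.20 ± 0.10 was not called (SE, n = 10, limma adjusted p = 0.077). MX1 was called with library medians centred (0.25, limma adjusted p = 0.022). Leaving out PAR, WT or Y698F also gave a call (0.25, 0.25 and 0.26, limma adjusted p = 0.038, 0.035 and 0.028). Protein-coding transcripts held 24.3% of its TPM in untreated libraries and 29.9% with E. IFIT1 was at most 1.17 TPM and RSAD2, which encodes viperin, at most 0.575 TPM in any of the 29 libraries. IFIT2 and IFIT3, relatives of IFIT1 that bind viral RNA, were higher by 0.78 ± 0.08 and 0.59 ± 0.08 from medians of 2.24 and 2.93 TPM (SE, n = 10, limma adjusted p = 1.41e-06 and 1.68e-05), and IFIT5 was not called. IFI44 was higher by 0.49 ± 0.07 (limma adjusted p = 3.57e-05), and IFI44L was not called.

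IFITM3, a membrane protein that blocks virus entry, was among the most abundant members, between 167 and 226 TPM in all libraries, and its change of 0.06 ± 0.03 was not called (SE, n = 10, limma adjusted p = 0.12). With quantile normalization it was called (0.15, adjusted p = 0.0014), and without Y643F as well (0.08, adjusted p = 0.049). IFITM1 was low and spread, between 0.412 and 10.7 TPM untreated and between 3.40 and 15.6 TPM with E, and was higher by 1.59 ± 0.15 in the lower-limit fit (SE, n = 10, limma adjusted p = 4.17e-07). IFITM1, IFITM2 and IFITM3 are close in sequence, so reads may have been divided among them, and the same holds within the IFIT family. LGALS3BP, a secreted glycoprotein and the highest member, rose by 0.15 ± 0.03 from a median of 513.7 to 572.0 TPM (SE, n = 10, limma adjusted p = 6.99e-05). IFI35 was not called (0.06 ± 0.06, limma adjusted p = 0.33).

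**Figure D2:**
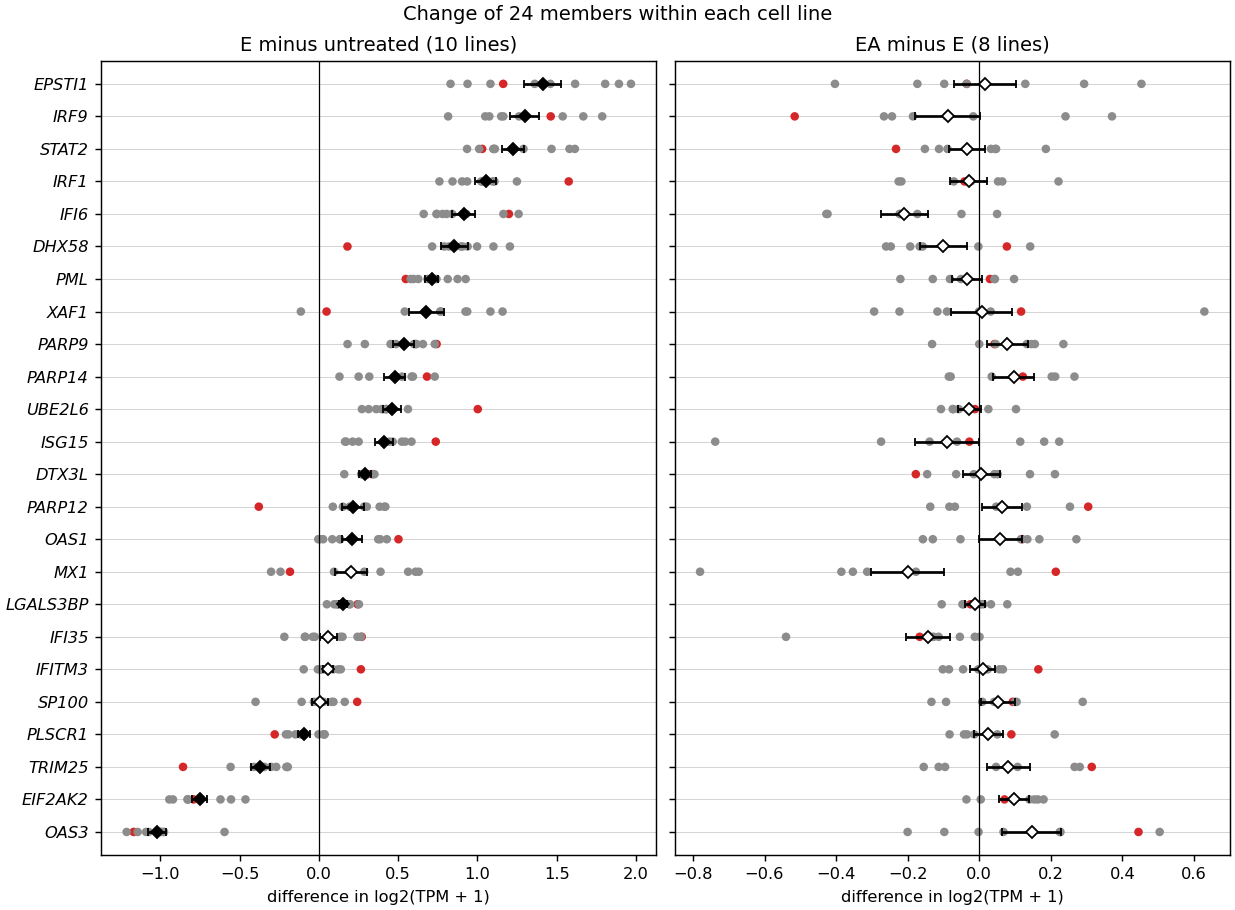
Difference in log2(TPM + 1) (x axis) of the 24 members of the main fit (y axis, ordered by the change with E), for E minus untreated in 10 lines and EA minus E in 8 lines. Points are single lines with PAR in red, diamonds with bars are limma estimates with their SE, and filled diamonds were called. The left panel runs from 1.41 for EPSTI1 to -1.02 for OAS3, and no diamond of the right panel is filled.

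The interferon genes that were listed, a part of the family, were low, and IFNE reached the highest value at 2.62 TPM. Whether interferon acted on these cells was not tested. IFNG, IFNL3 and IFNA2 were listed at 0 in all 29 libraries and IFNB1 in 25 of them, with a highest value of 0.31 TPM. Of the ligands listed, IFNE, an epithelial type I interferon, had the highest mean, 1.46 TPM, and was not called with E (-0.14 ± 0.13, limma adjusted p = 0.35). A listed 0 is the quantification's output, and the read number behind it is not known.

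The receptor chains and the first kinases were measurable. With E, 10 of the 20 pathway genes above 10 TPM on average were higher and 3 were lower, beside the 36.4% and 42.6% of all genes. IFNAR1, a chain of the type I receptor, was higher by 0.52 ± 0.08 (SE, n = 10, limma adjusted p = 1.46e-05), and IL10RB, a chain of the type III receptor, by 0.61 ± 0.06. IFNGR1 was higher by 0.40 ± 0.05 and IFNGR2 was not called. In the lower-limit fit IFNAR2 was higher by 0.53 ± 0.10 and IFNLR1 by 0.75 ± 0.08, so 5 of 6 receptor chains were higher, beside 35.5% of all genes. JAK1 was higher by 0.74 ± 0.06 and TYK2 by 0.25 ± 0.06, and JAK2, which serves the type II receptor, was not called (-0.55 ± 0.26, limma adjusted p = 0.074). Of the inhibitors, SOCS1 and SOCS3, which block the receptor kinases, were lower, with changes of -0.48 ± 0.17 and -0.91 ± 0.10 (SE, n = 10, limma adjusted p = 0.0227 and 1.73e-06), while PIAS1 and IRF2 were higher by 0.29 ± 0.05 and 0.44 ± 0.06.

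Genes that take part in inducing interferon or that hold its induction back, such as TREX1, SAMHD1 and ADAR, moved both ways. TLR3, a receptor for double-stranded RNA, was higher by 0.84 ± 0.09 and the adaptor MAVS by 0.32 ± 0.03, and the kinase IKBKE by 0.35 ± 0.08. MB21D1, which encodes the DNA sensor cGAS, changed by -0.95 ± 0.07, and the nucleases TREX1 and SAMHD1 by -0.40 ± 0.11 and -0.51 ± 0.05. In the lower-limit fit the adaptor MYD88 was higher by 1.024 ± 0.20 and TMEM173, which encodes STING, by 0.56 ± 0.16. The other 6 passed the limma threshold in the main fit, and IRF3, TBK1, TICAM1 and ADAR did not.

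Adding AF154 to erlotinib was compared over 8 lines, leaving out KO, which lacked an EA library, and KD. No member was called: 0 of 24 in the main fit and 0 of 45 in the lower-limit fit, beside 2.36% and 0.475% of all genes in either direction. At an unadjusted p under 0.05 limma gave 3 of the 24 and 5 of the 45, beside 1895 of 9085 and 2382 of 14111 genes. The estimates ran from -0.21 to 0.15 on the log2 scale, with SE between 0.03 and 0.10, and the median was 0.01 beside 0.02 for all genes. STAT2 changed by -0.03 ± 0.05, IRF9 by -0.09 ± 0.09, IRF1 by -0.03 ± 0.05 and ISG15 by -0.09 ± 0.09. For IRF9 and ISG15, with an SE of 0.09, a change of about 0.2 could not be told from 0 with 8 lines. That limit is before adjustment, and a call after adjustment over all genes would need a larger change.

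IFI6 had the smallest unadjusted p. Its EA libraries lay between 10.6 and 16.5 TPM (median 14.5) and were lower than the E library of the same line in 7 of the 8 lines, with WT the exception. The change was -0.21 ± 0.07 (SE, n = 8, limma unadjusted p = 0.0076, adjusted p = 0.10). EIF2AK2 was higher with EA in 7 of 8 lines (0.10 ± 0.04, limma adjusted p = 0.21). IFI6 in the kinase-dead line KD, which stood outside this fit, differed by -0.43 between EA and E, a value with no replicate error.

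Erlotinib with AF154 against untreated, in the same 8 lines, gave 16 members higher and 3 lower of 24, beside 33.1% and 37.6% of all genes. This comparison shares its untreated libraries with the comparison of E, so its calls are not independent of it. EPSTI1 changed by 1.35, IRF9 by 1.23, STAT2 by 1.16, IRF1 by 1.021 and OAS3 by -0.84.

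The lines were compared next, each against the other 9 over all its treatments with treatment in the model. With 1 population per construct, such a difference belongs to that population and its dishes and cannot be told apart from the construct it carries. These p-values rest on dishes that differ in treatment and share the cells of their line, so they do not measure the spread between separate populations of a line. PAR differed most. Mitochondrial genes took 14.4%, 17.4% and 16.4% of its TPM untreated, with E and with EA, where the other lines reached 14.2%, 14.2% and, in Y821F, 17.4%, and the part of this share in the results was not tested. Of the 24 members, 2 were higher and 9 were lower in PAR, beside 18.2% and 27.7% of all genes. In the lower-limit fit 2 of 45 were higher and 16 were lower, beside 15.3% and 23%. PAR lay below all other lines in 3 of 3 treatments for 5 members and above them for 1, beside 11.8% and 8.71% of all genes.

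IFI35 (ENSG00000068079, chromosome 17 from 43006725 to 43014456, plus strand), an interferon-induced leucine zipper protein, had the largest SD between untreated lines among the 24 members. PAR had 12.9 TPM untreated, 15.8 TPM with E and 13.99 TPM with EA, and the other lines had 23.7 to 35.1, 28.4 to 33.0 and 21.7 to 30.4 TPM. The difference was -0.97 ± 0.09 (SE, limma adjusted p = 8.67e-09), and no derived line came within the range of PAR. OAS1 was 9.36, 13.7 and 14.9 TPM in PAR and no lower than 17.3 TPM in any library of another line (-0.77 ± 0.08, limma adjusted p = 6.22e-08). UBE2L6, IRF1 and LGALS3BP were the others of the 24 members that were lowest in PAR in all 3 treatments, and so were DDX58, HERC5 and OAS2, whose means were under 10 TPM, IRF1 with EA by a margin of 36.37 against 36.38 TPM. UBE2L6 was 65.5 TPM in untreated PAR and 107 TPM or more in the other untreated lines. OAS2, below 10 TPM on average, differed in PAR by -1.09 ± 0.14 on the log2 scale (limma adjusted p = 2.03e-06), and DDX58 by -0.68 ± 0.08 (limma adjusted p = 1.50e-06).

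PARP12 (ENSG00000059378, chromosome 7 from 140023744 to 140063721, minus strand), which moves to stress granules and restrains translation, ran the other way. PAR had 76.3 TPM untreated, 58.5 TPM with E and 72.4 TPM with EA, against 28.8 to 36.3, 33.9 to 48.9 and 35.8 to 47.1 TPM in the other lines. The difference was 0.84 ± 0.08 (SE, limma adjusted p = 1.74e-08). Protein-coding transcripts held only 17.5% of the TPM of this gene over all libraries. Summed over those transcripts alone, PAR had 7.81, 10.1 and 7.62 TPM and lay within the range of the other lines in each treatment (4.48 to 8.39, 3.88 to 11.9 and 4.27 to 8.51 TPM), so the excess was in transcripts not annotated as protein-coding. EPSTI1 was also called higher in PAR (0.35 ± 0.14, limma adjusted p = 0.044), though not in the lower-limit fit (adjusted p = 0.052).

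**Figure D3:**
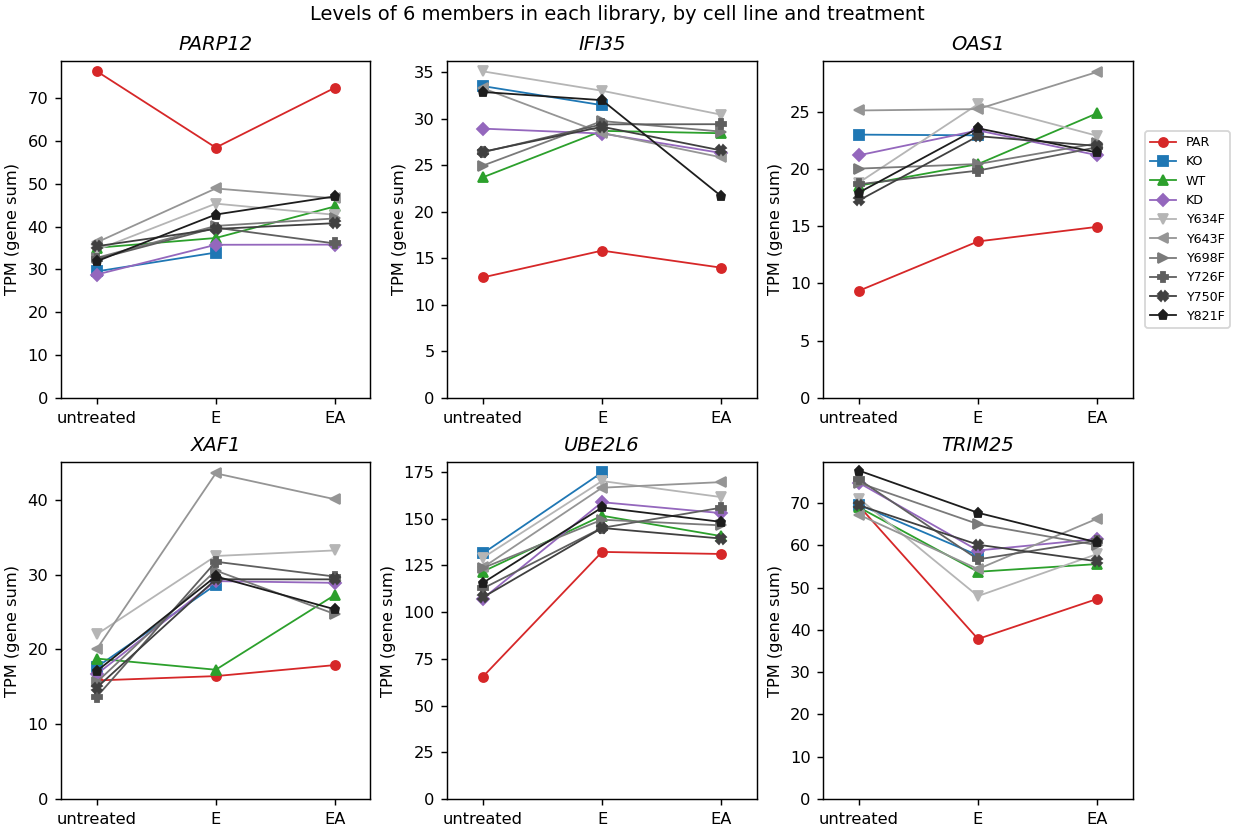
Gene-level TPM (y axis, linear, from 0) of 6 members in each library by treatment (x axis), with lines joining the libraries of a cell line and PAR in red. PAR is the highest line for PARP12 and the lowest for IFI35, OAS1 and UBE2L6 in all 3 treatments, and for XAF1 and TRIM25 with E and EA.

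The response to E differed between PAR and the other 9 lines for 3 of the 24 members, in a comparison chosen after the data were seen. PAR gave 1 pair of libraries, so it was assumed to vary like the other lines. Among all genes 0.66% changed more upward in PAR and 5.23% more downward. UBE2L6 went from 65.5 to 132 TPM in PAR, and its change exceeded that of the other lines by 0.60 ± 0.10 (SE, limma adjusted p = 0.0051). PARP12 was lower with E in PAR and higher in all 9 other lines, a difference of -0.66 ± 0.14 (SE, limma adjusted p = 0.016). In its protein-coding transcripts alone PAR went the other way, from 7.81 TPM untreated to 10.1 TPM with E. TRIM25 went from 69.3 to 37.8 TPM in PAR, -0.54 ± 0.13 beyond the others (SE, limma adjusted p = 0.028). For EA against untreated, the same kind of comparison gave a difference of 0.63 ± 0.13 (SE) for UBE2L6. For E, the median of all genes was -0.12, and centring library medians moved it to 0.07. After centring, the difference was 0.79 for UBE2L6 (adjusted p = 0.0019), -0.47 for PARP12 (adjusted p = 0.050) and -0.35 for TRIM25 (adjusted p = 0.12). IRF1, at 0.58 ± 0.16 (limma adjusted p = 0.052), was called after centring (0.77, adjusted p = 0.023).

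Among the derived lines, Y643F had 4 of 24 members called higher, DTX3L, OAS1, PARP14 and XAF1, beside 3.23% of all genes. XAF1 was 43.6 TPM in Y643F with E and 40.1 TPM with EA, the highest value in each treatment. PARP14 was 25.8 TPM with E, where the other lines reached 19.95 TPM. All genes were shifted in this line, with a median of 0.07, and 0 of the 4 calls were left after library medians were centred, when the 4 differences were between 0.15 and 0.42. The other 8 lines, KO, WT, KD, Y634F, Y698F, Y726F, Y750F and Y821F, had 0 of 24 members called by limma. At an unadjusted p under 0.05 limma gave 1 to 7 members in each, beside 756 (Y726F) to 1204 (KD) of all 9085 genes. In these 8 lines together, 0.428% of all gene tests were called.

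As a description without a test, the mean of log2(TPM + 1) over the 45 members with a mean of at least 1 TPM ordered the untreated lines from PAR, at 3.31, over KD (3.43), Y726F (3.45), Y821F (3.48), WT (3.49), Y750F (3.50), KO (3.53), Y698F (3.56) and Y634F (3.59) to Y643F, at 3.66. With 1 library per line no spread within a line could be measured. With E the mean was higher in 10 of 10 lines, by 0.38 ± 0.06 (SD, n = 10), from 0.27 in WT to 0.47 in Y821F. From E to EA it differed by 0.02 ± 0.05 (SD, n = 8) and was higher in 6 of the 8 lines and lower in Y750F and Y821F. PAR was the lowest and Y643F the highest line in all 3 treatments.

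**Figure D4:**
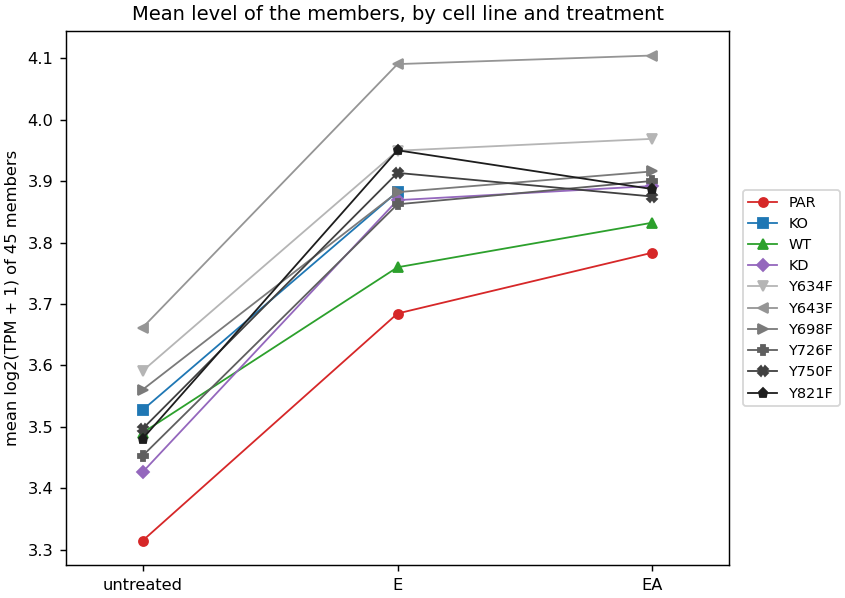
Mean log2(TPM + 1) of the 45 members with a mean of at least 1 TPM (y axis, not starting at 0) by treatment (x axis) for each cell line. Every line is higher with E than untreated, by 0.27 to 0.47, and the EA values stay close to those with E.

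Over the 10 lines, ISG15's level, averaged over treatments after removing each treatment's mean, went most closely with IFI6 (Pearson r = 0.54), EPSTI1 and IFITM3 (0.52 each). These are descriptions over 10 lines that share a parent, and each line's treatments share that line's cells. Without PAR the order changed, with OAS3 at 0.81 and IFITM3 at 0.75. Within the untreated libraries, the members' median SD between lines was 0.18 on the log2 scale, beside 0.15 for all genes kept, and 0.14 beside 0.13 when PAR was left out.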

How the data were processed

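Deposited values were TPM, 1 for each transcript in each library, with no counts. A company sequenced the libraries and aligned the reads, and the submitters' processing notes name kallisto and GRCh38; the version, annotation and strand handling are not given in the sources used here. Of 188753 transcripts, 169797 matched GENCODE release 29 by identifier (97.0% to 97.4% of each library's TPM) and were summed to 35579 genes, and 18956 were not used. Overlapping neighbours (DTX3L with PARP9, TRIM25 with DGKE, IRF9 with AL136295.5) could share reads. The analysis used limma 3.58.1 in R 4.3.3 (lmFit, eBayes with trend) on log2(TPM + 1), a mean of at least 10 TPM over 29 libraries as the methods' limit was read, with p-values adjusted after Benjamini and Hochberg (threshold 0.05). The cell line was the block, since libraries of a line are the same cells. Deviations from the group means correlated within a line at 0.096 to 0.60 for untreated and E, 0.11 to 0.74 for E and EA, and -0.12 to 0.54 for untreated and EA.

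Members and lists were chosen with earlier results of these data known. Ranges over libraries, medians or single libraries were given for STAT2, IRF1, IRF7, IRF9 and ISG15. They were also given for the 12 called members with the largest treatment change and the 6 most spread between untreated lines. All other members were given by values or counts. Promoters were RefSeq windows on GRCh38.p14. Alternatives were other pseudocounts, filters and scalings, no block, leaving out each line, and, after the data were seen, protein-coding transcripts only and the test of PAR's response. Scripts were tested on simulated data. One gene of the pathway list is not reported here.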

Additional observations from a re-analysis of the deposited data

Results flagged for a closer look

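Of 56 sets of libraries (a member or a summary value in 1 treatment), 11 had 1 library far from the rest. Chance gives about 1 in 20, but 6 of the members were chosen for their spread between untreated lines and the sets share lines, so that rate does not apply here. PAR was that library in 8. It was low for IRF1 untreated (11.9 TPM, others from 18.9 to 25.7), for PML with E (69.2 TPM, others from 81.1 to 92.0), for IFI35 untreated (12.9 TPM, others from 23.7 to 35.1) and with E (15.8 TPM, others from 28.4 to 33.0), and for OAS1 untreated (9.36 TPM, others from 17.3 to 25.1) and with E (13.7 TPM, others from 19.9 to 25.7). It was high for PARP12 untreated (76.3 TPM, others from 28.8 to 36.3) and with EA (72.4 TPM, others from 35.8 to 47.1).

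The other 3 were WT, low for IRF9 untreated (3.23 TPM, others from 5.75 to 7.63), and Y643F, high with E for PARP9 (18.8 TPM, others from 13.0 to 15.8) and PARP14 (25.8 TPM, others from 16.05 to 19.95).

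The change with E differed between PAR and the other 9 lines, by a test of the difference itself in limma in which PAR was 1 pair of libraries with no spread of its own, for UBE2L6 (0.60 on the log2 scale, adjusted p = 0.0051), PARP12 (-0.66, adjusted p = 0.016) and TRIM25 (-0.54, adjusted p = 0.028).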

How the results depend on the processing

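The depth behind TPM is unknown, each line and treatment had 1 library, and precision rests on 10 lines with different receptors. Leaving out each line in turn gave 16 to 17 members higher and 3 to 4 lower with E, 16 and 3 for EA against untreated, and 0 for EA against E. No member was called for EA against E under any alternative. Without the replicate block, 14 members were higher and 3 lower with E, beside 34.5% and 40.5% of all genes. For EA against untreated the counts were 13 and 3, beside 31.2% and 35.8%. OAS1 and PARP12 lost their calls without the block (limma adjusted p = 0.14 for both with E).

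Lower limits on TPM brought in more members. With a mean of at least 1 TPM, 30 of 45 members were higher with E and 28 with EA against untreated, beside 35.5% and 31.1% of all genes. In that fit 16 were lower in PAR and 7 higher in Y643F, beside 23.0% and 2.09%. With no filter these counts were 28, 27, 16 and 6 of 49, beside 20.7%, 16.8%, 11.3% and 1.08% of all genes. For PAR, 1 of 24 members was higher with the untreated and E libraries only, beside 14.9% of all genes. With protein-coding transcripts only it was 1 of 20, beside 19.5%. For Y643F, 0 were higher with library medians centred, with quantile normalization or with the untreated and E libraries only. With PAR left out of the reference 2 were higher, beside 1.62% of all genes. For WT, 1 was lower with quantile normalization, beside 0.264% of all genes.

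The calls for the response of PAR to E, which rests on 1 pair of libraries, moved with the pseudocount, the filter and the scaling. IRF1 differed by 0.62 with a pseudocount of 0.1, by 0.77 with medians centred and by 0.68 with quantile normalization. With quantile normalization the difference was -0.48 for PARP12 and -0.40 for TRIM25, and neither was called. The response of PAR to EA also rests on 1 pair of libraries, and its calls moved with medians centred. The mean over members rose by 0.48 with E at a pseudocount of 0.1, and its EA minus E difference was -0.0097 over the members of at least 10 TPM. With medians centred, PAR lay -0.29 from the others untreated and -0.11 with E.

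Among single members, signs turned for values near 0 of SP100, IFI35, ISG15 and EIF2AK2, none of them called in that comparison. SP100 with E ran from -0.018 without PAR to 0.053 without WT (-0.0016 without Y634F, -0.00028 without Y643F, -0.0095 without Y821F) and was -0.024 with protein-coding transcripts only. IFI35 with E was -0.016 with protein-coding transcripts only, and its EA minus untreated value ran from -0.097 without WT to 0.022 without Y821F. For EA against E, ISG15 ran from -0.13 without Y643F to 0.0024 without Y821F, and EIF2AK2 was -0.00022 with protein-coding transcripts only. The causes of these shifts were not tested.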
